A study of Bos taurus with 12 samples.

Results

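The levels of 10 molecular chaperone genes were compared between blastocysts and 8-16-cell embryos of cattle. They are HSPA1A, HSPA8 and HSP90AA1 of the cytosol, HSPD1 and HSPE1 of the mitochondrion, and CANX, CALR, HSPA5, HSP90B1 and PDIA4 of the endoplasmic reticulum (ER). A probe set, the group of short oligonucleotides that reads 1 transcript on the array, was taken where the platform annotation gave it exactly 1 of these symbols. This gave 22 probe sets for the 10 genes, of 24016 probe sets and 9155 named genes in all. HSPA1A had 6 probe sets, CANX, HSPA5 and PDIA4 had 3 each, HSP90AA1 had 2, and the other 5 genes had 1 each.

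Embryos were produced in vitro from oocytes of Japanese Black cattle, fertilized with semen of the same breed. There were 4 groups of 3 arrays: blastocysts from oocytes of prepubertal heifers (9 to 12 months old), blastocysts from oocytes of adult cows, 8-16-cell embryos from prepubertal heifers, and 8-16-cell embryos from adult cows. Each array held RNA of a separate pool, of 10 expanded blastocysts (day 7) or of 50 embryos of 8 to 16 cells (day 3, 70 to 72 h after insemination). The labels call the pools biological replicates but do not say whether pools shared donors, a bull or a day of culture. The p-values therefore speak for these pools only. They draw mostly on variation estimated over all probe sets, with 195.66 prior against 8 residual degrees of freedom. How far the arrays of a group differ for the gene in question weighs little in them. Adult ovaries came from an abattoir and heifer ovaries from farms by spaying, so the age and the source of the donors cannot be told apart. Embryos were chosen for normal morphology, and serum entered the embryo culture only after the first days, so the day 7 groups grew in it for longer.

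Chaperones bind unfolded or partly folded proteins and release them in cycles that are mostly driven by ATP. In the cytosol, HSPA8 is the constitutive Hsp70, HSPA1A is its form induced by heat shock, and HSP90AA1 acts later on kinases and receptors. HSPD1 and its lid HSPE1 form the mitochondrial folding chamber, while the ER uses an Hsp70 (HSPA5, or BiP), an Hsp90 (HSP90B1), a membrane-bound and a soluble lectin chaperone for glycoproteins (CANX and CALR), and disulfide isomerases such as PDIA4. In mouse embryos, HSPA1A is among the first genes transcribed when the embryonic genome is activated, and in cattle the main wave of activation falls around the 8-16-cell stage.

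The signals are MAS5 intensities on a linear scale, brought by the authors' processing to the same mean on each array, so they show a transcript's share of the labelled RNA and not its amount per embryo. A signal was read as above background where it exceeded the highest of 27 control probe sets for Bacillus subtilis genes on the same array. Whether RNA for these controls was added to the samples is not given in the labels, and where it was, the background is set too high. Of the 22 probe sets, 16 to 20 were above background on each blastocyst array and 8 to 19 on each 8-16-cell array. Prepubertal 8-16-cell replicate 3 stood apart: its background was 1664, where the other 11 arrays had 122 to 424, it showed 8 of the 22 above background, and its 100 brightest probe sets held 49.3% of its signal. Values without it stand beside the results below that it moved most. Leaving it out does not make the donor groups alike at this stage. Background was 356 to 1664 on prepubertal and 122 to 251 on adult 8-16-cell arrays. On these arrays 1255 to 5333 and 5482 to 7148 of all probe sets were above it, both without overlap. The part of this in the donor differences was not tested. The ratio of 3′ to 5′ control probe sets for EF1A was 0.0524 to 0.285 on blastocyst arrays and 0.00273 to 0.0354 on 8-16-cell arrays, without overlap. For GAPD it was 1.09 to 1356 on blastocyst and 0.402 to 13.9 on 8-16-cell arrays. Only prepubertal blastocyst replicate 1, at 1.09, lay within the 8-16-cell range. For actin it was 0.433 to 36.7 and 0.157 to 9.54, with overlap. The part of these ratios in the stage differences below was not tested. Summed signals of 4 oocyte markers were 141 to 658 in blastocysts and 30239 to 254700 in 8-16-cell embryos, while those of 4 trophectoderm markers were 72260 to 141930 in blastocysts and 171 to 757 in 8-16-cell embryos. The summed signals of 10 cumulus and granulosa cell markers were 1459 to 3726 in blastocysts and 481 to 3037 in 8-16-cell embryos, with no more than 3 of the 10 above background on any array. Blood and sperm markers had at most 3 of 5 and 2 of 4 above background.

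Across both donor groups, 6 of the 10 chaperone genes rose in blastocysts relative to 8-16-cell embryos, by the probe set of highest mean level, and 1 fell. The risers were CANX, HSPD1, CALR and HSPE1, by 3.50 to 4.52 on the log2 scale, and HSP90AA1 and HSPA8, by 1.62 and 1.45. HSPA1A fell by 2.97 on 1 of its 6 probe sets, a call that was lost without adult blastocyst replicate 1. The other HSPA1A probe sets went both ways and did not pass. HSPA5, HSP90B1 and PDIA4 did not pass the test. Without prepubertal 8-16-cell replicate 3, 5 rose and 1 fell. By compartment, 2 of 3 cytosolic genes rose and 1 fell, both mitochondrial genes rose, and 2 of 5 ER genes rose. The test was limma's moderated test on log2(signal + 16), adjusted by Benjamini and Hochberg over all 24016 probe sets and called at 0.05. All differences and standard errors (SE) below are on that scale, on which changes of dim probe sets are understated. In pooled embryos, a changed share of a cell type and a changed amount of RNA per cell cannot be told apart.

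At the level of probe sets, 8 of 22 were called higher and 1 lower in blastocysts over the mean of both donor groups, where 3.90% and 2.51% of all probe sets were. In the prepubertal embryos 5 were called higher and 0 lower (1.43% and 0.912% of all), and in the adult embryos 1 higher and 1 lower (1.26% and 0.870% of all). Without prepubertal 8-16-cell replicate 3 the counts were 9 higher and 1 lower over both donor groups (4.1% and 2.86% of all), 1 and 0 in prepubertal embryos (1.36% and 0.87%), and 5 and 1 in adult embryos (1.97% and 1.34%). By unadjusted p under 0.05, 13, 10 and 9 of the 22 passed in these comparisons, where 16.7%, 13.8% and 11.1% of all probe sets did. All 6 blastocyst arrays lay above all 6 8-16-cell arrays for 6 of the 22 (2.17% of all) and below them for 1 (1.27% of all). Within the prepubertal embryos 10 lay above without overlap and 1 below (7.35% and 9.24% of all), and within the adult embryos 10 above and 3 below (9.55% and 7.62% of all). Over the 10 genes the median difference was 1.54, beside -0.04 over all 9155 genes, of which 6.35% rose and 3.53% fell. The medians were 1.77 against -0.16 in prepubertal embryos and 2.24 against 0.13 in adult embryos. With prepubertal 8-16-cell replicate 3 left out they were 1.16 against 0.07 in prepubertal embryos and 1.86 against 0.10 over both donor groups. Of all probe sets, 9807 were above background on at least 3 arrays, so the shares of all include many dim ones. The members were chosen with earlier results of these data known and were not tested as a set.

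**Figure D1:**
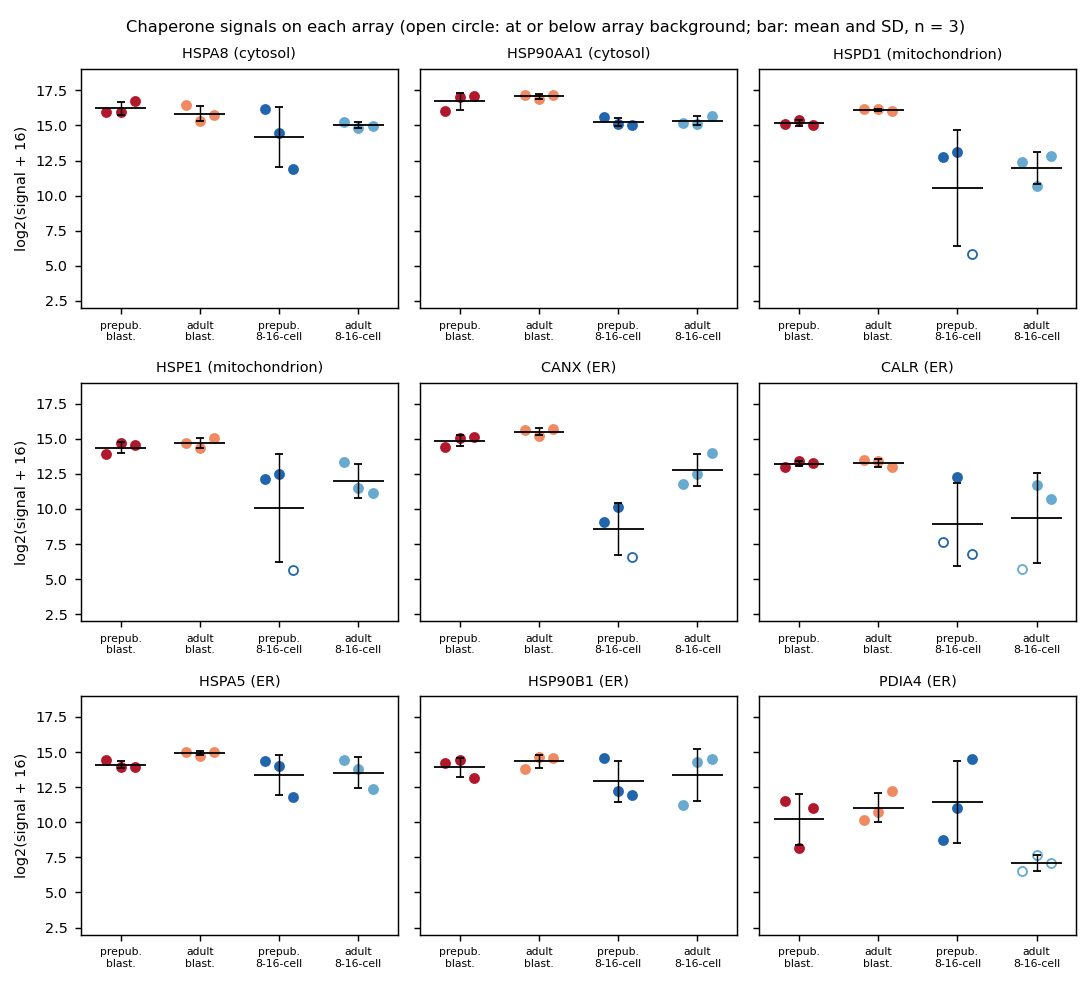
Signals of 9 chaperone genes on the 12 arrays, as log2(signal + 16), by the probe set of highest mean level of each gene; points are arrays, open points are at or below the array's background, and bars give the mean and SD of 3 arrays. HSPD1, HSPE1, CANX, CALR and HSP90AA1 lie higher on all blastocyst arrays than on any 8-16-cell array, and the lowest point of HSPD1, HSPE1 and CANX belongs to prepubertal 8-16-cell replicate 3.

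Both genes of the mitochondrial pair rose. HSPD1, the Hsp60 subunit of the folding chamber, read 34762, 43931 and 33793 in prepubertal blastocysts and 74121, 73806 and 67954 in adult blastocysts. It read 6828, 9014 and 40 in prepubertal 8-16-cell embryos and 5431, 1612 and 7291 in adult 8-16-cell embryos. Every blastocyst array was thus brighter than every 8-16-cell array, and the 40 was at background on the array that stood apart. HSPD1 rose by 4.62 in prepubertal embryos (SE 0.99, limma adjusted p = 0.00104) and by 4.16 in adult embryos (SE 0.99, limma adjusted p = 0.00559). Over both donor groups it rose by 4.39 (SE 0.70, limma adjusted p = 5.28e-07). Without prepubertal 8-16-cell replicate 3 the difference was 2.24 in prepubertal embryos and did not pass (limma adjusted p = 0.0723), and 3.20 over both donor groups (limma adjusted p = 1.9e-07). The adult call was lost in 2 of 21 alternatives, without adult 8-16-cell replicate 2 and without the trend in the variance estimate (highest limma adjusted p, 0.122).

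HSPE1, the Hsp10 co-chaperonin that caps the chamber, read 15392, 25969 and 23738 in prepubertal blastocysts and 26592, 21173 and 33945 in adult blastocysts. Its 8-16-cell signals were 4472, 5742 and 34 in prepubertal embryos and 10489, 2808 and 2239 in adult embryos. The stages did not overlap in either donor group. It rose by 4.28 in prepubertal embryos (SE 1.08, limma adjusted p = 0.0101) and by 3.50 over both donor groups (SE 0.77, limma adjusted p = 0.000517), and was 2.72 higher in adult blastocysts without passing (limma adjusted p = 0.223). Without prepubertal 8-16-cell replicate 3 these values were 2.06 (limma adjusted p = 0.23), 2.39 (0.00173) and 2.72 (0.0212), so that the call moved from the prepubertal to the adult embryos. The adult difference itself did not change there, only the spread that all groups share.

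HSPD1 and HSPE1 are neighbours in the RefSeq annotation of the cattle genome, between COQ10B and MOB4. Their log2 signals had a Pearson r of 0.96 over the 12 arrays, which share stage and depth. It was 0.93 after each group's mean was taken away, and 0.89 without prepubertal 8-16-cell replicate 3. The 0.93 still held that array, on which both signals were at background, and the 0.89 still held the stage difference. Their agreement apart from both was not measured. Among all named genes, the 3 most like HSPD1 by this measure were SH3BGRL2 (r = 0.97), HSPE1 (0.96) and NDFIP1 (0.96).

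**Figure D2:**
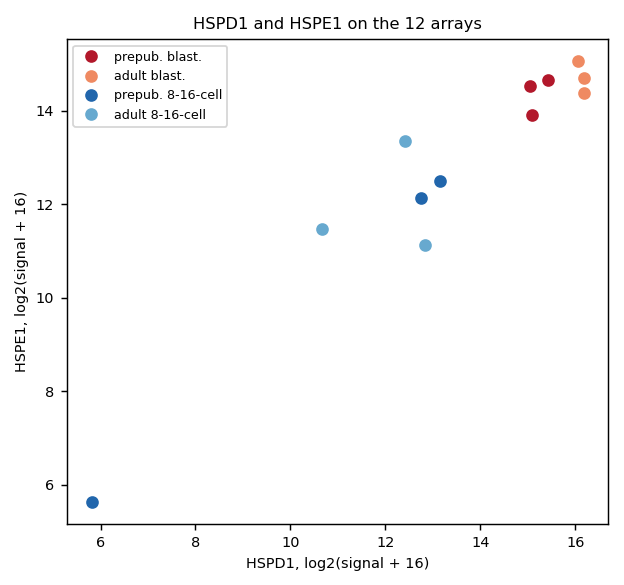
HSPE1 plotted against HSPD1 on the 12 arrays, both as log2(signal + 16), coloured by group. The blastocyst arrays fill the upper right, the 8-16-cell arrays lie below and to the left, and prepubertal 8-16-cell replicate 3 is the point far down in the corner, with signals of 40 for HSPD1 and 34 for HSPE1.

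A further 13 genes of mitochondrial chaperones and proteases were measured. Their list holds HSPA9, the mitochondrial Hsp70, with its cofactors, and proteases such as LONP1. None of the 13 passed over both donor groups (median difference 0.23), in prepubertal embryos (0.07) or in adult embryos (-0.25), by limma at adjusted p 0.05. Of all 9155 genes, 6.35%, 2.57% and 1.84% rose and 3.53%, 1.39% and 1.33% fell in these comparisons. By unadjusted limma p under 0.05 the counts were 2, 1 and 0 of the 13, beside 16.7%, 13.8% and 11.1% of all probe sets. The 13 genes are too few to set these counts apart from those shares. A dimmer probe set of AFG3L2 was called lower in adult embryos. Without prepubertal 8-16-cell replicate 3, where 6.74% and 4.09% of all genes rose and fell, 1 of the 13 rose and 1 fell over both donor groups. These were DNAJC19, a subunit of the import motor (3.57, limma adjusted p = 0.0178, against 3.11 and 0.0506 with it), and GRPEL1, which releases ADP from HSPA9 (-2.81, limma adjusted p = 0.000357, against -1.42 and 0.323 with it), both named after their values were seen.

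Of the ER chaperones, the lectin pair CANX and CALR rose. CANX, the membrane-bound calnexin, read on its brightest probe set (Bt.12868.1.S1_at) 21739, 34396 and 36141 in prepubertal blastocysts and 50431, 37587 and 53128 in adult blastocysts. The same probe set read 526, 1137 and 77 in prepubertal 8-16-cell embryos and 3497, 5616 and 16508 in adult 8-16-cell embryos. All blastocyst arrays lay above all 8-16-cell arrays, and the 3 prepubertal 8-16-cell arrays lay below every other array. CANX rose by 6.27 in prepubertal embryos (SE 1.02, limma adjusted p = 5.6e-06), and by 5.25 without replicate 3 (limma adjusted p = 4.21e-06). In adult embryos it was 2.76 higher without passing (SE 1.02, limma adjusted p = 0.163), and passed without that array (0.0165). Over both donor groups the rise was 4.52 (SE 0.72, limma adjusted p = 7.14e-07).

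The other CANX probe sets gave the same direction. The annotation gives both of them the same sequence record, and they correlated at r = 0.98, so they are not independent readings. Bt.27985.1.S1_at and Bt.27985.1.A1_at rose by 3.02 and 3.07 over both donor groups (limma adjusted p = 0.00515 and 0.00561) and by 3.99 and 4.22 in prepubertal embryos (0.0256 and 0.0194). Their prepubertal calls were lost without replicate 3, at 2.80 and 2.89 (0.111 and 0.107). The 3 CANX probe sets correlated at r = 0.89 to 0.98 over the 12 arrays.

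CALR, the soluble calreticulin that also stores calcium, read 8269, 10670 and 10110 in prepubertal blastocysts and 11513, 10751 and 7950 in adult blastocysts. Its 8-16-cell signals were 186, 4960 and 93 in prepubertal embryos and 36, 3327 and 1654 in adult embryos, and 1 of the 3 prepubertal and 2 of the 3 adult arrays were above background. The blastocyst arrays were uniform and the 8-16-cell arrays scattered widely. CALR rose by 4.12 over both donor groups (SE 0.93, limma adjusted p = 0.000883), and by 3.59 without prepubertal 8-16-cell replicate 3 (0.00173). It just missed the threshold within prepubertal embryos, at 4.33 (SE 1.32, limma adjusted p = 0.0516), and missed it within adult embryos, at 3.91 (SE 1.32, 0.101). Without that array the prepubertal difference was 3.27 (limma adjusted p = 0.191) and the adult one passed (0.0302).

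HSPA5, the ER Hsp70 that also holds the stress sensors of the unfolded protein response inactive, showed no stage difference that passed over all 12 arrays. On Bt.4273.1.S1_at it read 21676, 15776 and 15749 in prepubertal blastocysts and 33334, 27378 and 33534 in adult blastocysts, against 20677, 16329 and 3482 in prepubertal and 22683, 14185 and 5193 in adult 8-16-cell embryos. The prepubertal stages overlapped and the adult stages did not. Over both donor groups the difference was 1.06 (95% interval -0.13 to 2.25, limma adjusted p = 0.382). A second probe set, Bt.29939.2.S1_at, gave 2.49 (interval 0.78 to 4.19, limma adjusted p = 0.0631) and passed without prepubertal 8-16-cell replicate 3 (2.44, 0.0369). On Bt.4273.1.S1_at the difference was then 0.66 (limma adjusted p = 0.536). The third, Bt.29939.1.S1_at, was above background on 3 of 12 arrays. The first 2 correlated at r = 0.33 over the arrays, so the probe sets of HSPA5 did not track each other.

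HSP90B1, the ER Hsp90 needed for integrins and Toll-like receptors, likewise did not pass. It read 19096, 21822 and 9084 in prepubertal blastocysts and 14419, 26202 and 24153 in adult blastocysts, against 24495, 4790 and 3901 in prepubertal and 2393, 20438 and 23460 in adult 8-16-cell embryos. The groups overlapped throughout. The difference over both donor groups was 1.004 (interval -0.27 to 2.28, limma adjusted p = 0.475).

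PDIA4, a disulfide isomerase, gave no common pattern. On its brightest probe set, Bt.23128.1.S1_at, it read 2886, 264 and 2069 in prepubertal blastocysts, 1156, 1666 and 4759 in adult blastocysts, 413, 2023 and 23502 in prepubertal 8-16-cell embryos, and 76, 192 and 118 in adult 8-16-cell embryos. It was at background on all 3 adult 8-16-cell arrays and above it on the other 9. The adult stage difference was at least 10.7-fold toward blastocysts, a bound taken against each array's background, but did not pass (limma adjusted p = 0.149). The prepubertal one was -1.20 (limma adjusted p = 0.783), and its sign turned without replicate 3, at 0.35 (0.962). The other PDIA4 probe sets, Bt.23128.2.A1_at and Bt.23128.3.S1_at, gave 0.23 and -2.55 in adult embryos and correlated with the first at r = 0.21 and -0.33.

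**Figure D3:**
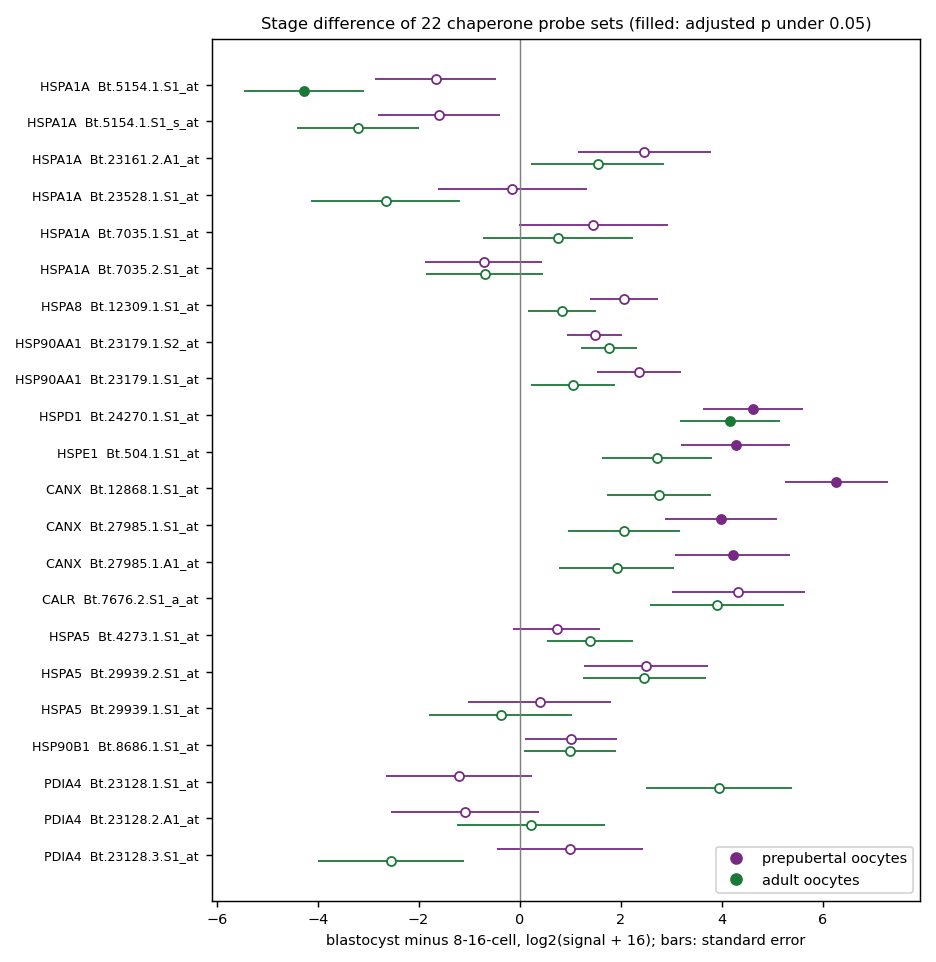
Blastocyst minus 8-16-cell difference of each of the 22 probe sets, on the log2(signal + 16) scale with its standard error, for prepubertal and adult oocytes; filled points passed at adjusted p 0.05. HSPD1 passed in both donor groups, HSPE1 and the 3 CANX probe sets in prepubertal embryos, and HSPA1A Bt.5154.1.S1_at, below 0, in adult embryos.

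In the cytosol, HSP90AA1, the inducible Hsp90, rose and HSPA1A fell. For HSP90AA1, Bt.23179.1.S2_at read 66023, 135425 and 142501 in prepubertal blastocysts and 147779, 121197 and 151185 in adult blastocysts, against 48600, 35498 and 33793 in prepubertal and 36468, 35504 and 53024 in adult 8-16-cell embryos. All blastocyst arrays lay above all 8-16-cell arrays. The rise over both donor groups was 1.62 (SE 0.39, limma adjusted p = 0.00181). Within donor groups it was 1.48 in prepubertal and 1.77 in adult embryos, and neither passed (limma adjusted p = 0.144 and 0.0609), although the adult one did without prepubertal 8-16-cell replicate 3 (0.00118). The second probe set, Bt.23179.1.S1_at, gave 1.71 over both donor groups (limma adjusted p = 0.0619).

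HSPA8, the constitutive Hsp70, was above background on all 12 arrays. It read 63435, 65092 and 111481 in prepubertal blastocysts and 89688, 41333 and 55519 in adult blastocysts, against 72263, 22396 and 3892 in prepubertal and 38738, 28912 and 31788 in adult 8-16-cell embryos. A prepubertal 8-16-cell array, at 72263, lay above 4 of the 6 blastocyst arrays. The rise of 1.45 over both donor groups (SE 0.47, limma adjusted p = 0.0407) was called in 6 of 20 alternative settings and not without prepubertal 8-16-cell replicate 3, where it was 0.89 (0.0955). Neither donor group passed alone, at 2.06 in prepubertal embryos and 0.84 in adult embryos (limma adjusted p = 0.0755 and 0.76).

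HSPA1A, the heat-inducible Hsp70, was the member that fell, on 1 of its 6 probe sets. On Bt.5154.1.S1_at it read 4144, 5720 and 1788 in prepubertal blastocysts and 14, 3275 and 3404 in adult blastocysts, against 5933, 7555 and 30485 in prepubertal and 12153, 10065 and 19827 in adult 8-16-cell embryos. Every blastocyst array was dimmer than every 8-16-cell array, and the 14 was at background. HSPA1A fell by 4.27 in adult embryos (SE 1.19, limma adjusted p = 0.0282) and by 2.97 over both donor groups (SE 0.84, limma adjusted p = 0.0132). In prepubertal embryos the difference was -1.67 and did not pass (limma adjusted p = 0.581). Adult blastocyst replicate 1 weighed heavily: without it the adult difference was -2.0035 (limma adjusted p = 0.644) and that over both donor groups -1.83 (0.213). The adult call was lost in 8 of 21 alternatives. Besides that array these were each of the 3 adult 8-16-cell arrays left out, a pseudocount of 64, the filter on probe sets above background, the floor at the highest background, and the fit without the trend. Over the mean of both donor groups, the call was kept in 18 of 20 alternatives.

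The annotation assigned HSPA1A to 2 different gene identifiers. Bt.5154.1.S1_at and Bt.5154.1.S1_s_at carry an identifier that the RefSeq table used here does not list, and the other 4 carry that of the current HSPA1A, for which the table also gives HSPA1B as a synonym and HSPA1L as a neighbour. Hsp70 genes have near-identical copies, so which copies each probe set reads is uncertain. Bt.5154.1.S1_s_at ran with its partner (r = 0.89 over 12 arrays). It read 2998, 6259 and 1268 in prepubertal and 251, 2201 and 844 in adult blastocysts, against 8339, 4213 and 19041 in prepubertal and 7258, 8223 and 6670 in adult 8-16-cell embryos. The difference over both donor groups was -2.40 and did not pass (SE 0.85, limma adjusted p = 0.0714).

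A probe set of the current identifier pointed the other way. Bt.23161.2.A1_at read 3798, 5950 and 7572 in prepubertal and 2700, 4482 and 2218 in adult blastocysts, against 544, 1374 and 1294 in prepubertal and 5369, 748 and 249 in adult 8-16-cell embryos. Its difference over both donor groups was 2.01, without passing (SE 0.93, limma adjusted p = 0.232), and its r with Bt.5154.1.S1_at was -0.34. Bt.23528.1.S1_at gave -1.40 and Bt.7035.1.S1_at 1.11, neither passing. Bt.7035.2.S1_at gave -0.70 and was above background on 0 of 12 arrays. The fall of HSPA1A was called on 1 of its 6 probe sets, and of the other 5, 3 had negative and 2 positive differences, none passing. The named genes most like Bt.5154.1.S1_at over the 12 arrays were UBL5 (r = 0.94), SRP19 (0.93) and WDR33 (0.93).

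**Figure D4:**
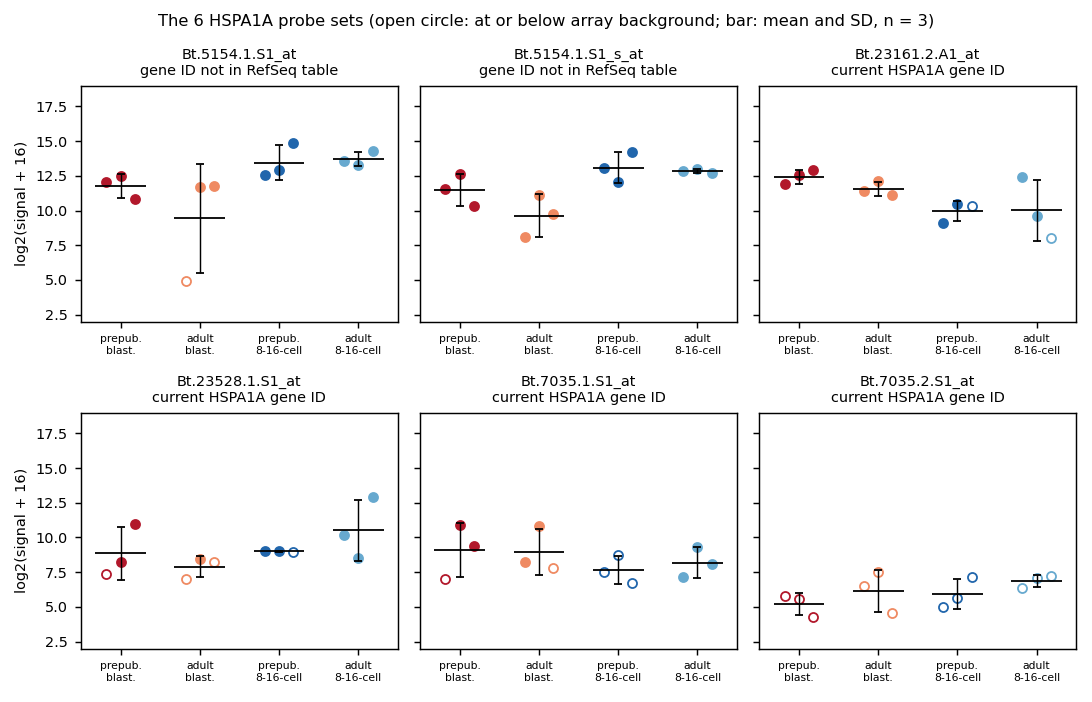
The 6 probe sets annotated to HSPA1A on the 12 arrays, as log2(signal + 16), with the mean and SD of 3 arrays; open points are at or below background. Bt.5154.1.S1_at is lower on all blastocyst arrays than on any 8-16-cell array. Bt.5154.1.S1_s_at has lower means in blastocysts, with overlap of the stages in prepubertal embryos, and did not pass. Bt.23161.2.A1_at is higher on all 3 prepubertal blastocyst arrays than on the prepubertal 8-16-cell arrays, and Bt.7035.2.S1_at stays at background.

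Other genes of the chaperone system were read from lists by the probe set of highest mean level. Over both donor groups, 11 of 120 measured list genes rose and 3 fell, and without prepubertal 8-16-cell replicate 3 these counts were 12 and 5. Of all 9155 genes, 6.35% rose and 3.53% fell, or 6.74% and 4.09% without that array. No list was tested against all genes. The calls gained there were CCT3, P4HB and DNAJC19 as higher and PPID and GRPEL1 as lower, named after their values were seen. Of the 20 measured cytosolic Hsp70, Hsp110 and J-domain genes, 1 rose and 2 fell (5% and 10%, median 0.42). DNAJB1, the Hsp40 that delivers clients to Hsp70 and is itself heat-inducible, read 1144, 1346 and 2328 in prepubertal and 2264, 184 and 489 in adult blastocysts, against 21062, 9830 and 12580 in prepubertal and 3478, 3684 and 5644 in adult 8-16-cell embryos. It fell by 2.96 (SE 0.89, limma adjusted p = 0.0212), and a second DNAJB1 probe set, Bt.28288.1.S1_at, fell by 4.40 (limma adjusted p = 0.00131). HSPA2, an Hsp70 best known from sperm formation, fell by 2.63 (limma adjusted p = 0.0388). HSPA4, an Hsp110 that releases ADP from Hsp70, rose by 2.94 (limma adjusted p = 0.00187), and by 1.49 without prepubertal 8-16-cell replicate 3 (0.0295). The dimmer HSPA4 probe set, Bt.1908.1.S1_at, rose at least 4.88-fold over both donor groups (limma adjusted p = 0.000553).

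Of the 12 Hsp90 and co-chaperone genes, 1 rose (median 0.76). This was HSP90AB1, the constitutive Hsp90, which read 16103, 11952 and 18753 in prepubertal and 20606, 17518 and 9741 in adult blastocysts, against 1748, 483 and 4095 in prepubertal and 814, 1304 and 6067 in adult 8-16-cell embryos. It rose by 3.17 (SE 0.79, limma adjusted p = 0.00342) and was called in all 20 alternatives. Of the 7 measured small heat shock protein genes, 1 rose (median 0.15): HSPB1, or Hsp27, which holds unfolded proteins and binds actin. HSPB1 read 12731, 8673 and 15939 in prepubertal and 931, 9493 and 11519 in adult blastocysts, against 253, 245 and 605 in prepubertal and 117, 295 and 250 in adult 8-16-cell embryos. All 6 blastocyst arrays lay above all 6 8-16-cell arrays. The rise was 4.75 over both donor groups (SE 0.97, limma adjusted p = 0.000153) and at least 19.1-fold in prepubertal embryos (0.0187), or at least 31.1-fold without replicate 3 (0.00988). A second HSPB1 probe set, Bt.4415.1.S1_at, rose at least 21.2-fold over both donor groups (limma adjusted p = 1.03e-06).

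Of the 13 measured genes of TRiC, the cytosolic chaperonin that folds actin and tubulin, and of prefoldin, which feeds it, 2 rose and 0 fell (median 1.55). PFDN1, a prefoldin subunit, rose by 4.04 and CCT6A, a TRiC subunit, by 2.83 (limma adjusted p = 0.00388 and 0.0294), and the CCT6A call was lost without prepubertal 8-16-cell replicate 3 (0.0596). Of the 36 measured genes of ER folding, 4 rose and 0 fell (median 0.27), with 6 of the 36 never above background. They were PDIA3, the disulfide isomerase that works with CANX and CALR (2.60, limma adjusted p = 0.0373), the prolyl isomerases PPIB (3.29, 0.0354) and FKBP2 (3.47, 0.0159), and the calcium-binding RCN2 (at least 4.67-fold, 0.0102). PPIB was no longer called without that array (0.066). The dimmer probe sets of PPIB, FKBP2 and RCN2 gave 0.16, 0.06 and 1.43 over both donor groups, none passing (limma adjusted p = 0.965, 0.987 and 0.561). MANF, a secreted ER stress protein, was called only in prepubertal embryos, where it rose at least 9.2-fold (limma adjusted p = 0.0228). Without replicate 3 that call was lost (0.0652), with a bound of 14.9-fold. The MANF difference was 0.54 in adult embryos and 2.88 over both donor groups, neither passing (limma adjusted p = 0.968 and 0.0694).

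Among the 19 measured stress regulators, 2 rose and 1 fell (median -0.15, but 0.34 without prepubertal 8-16-cell replicate 3). DERL1, part of the channel that returns misfolded ER proteins for degradation, read 6868, 1159 and 1963 in prepubertal and 462, 1932 and 2261 in adult blastocysts, against 14017, 11824 and 42935 in prepubertal and 15020, 18873 and 47864 in adult 8-16-cell embryos. It fell by 3.57 (SE 0.76, limma adjusted p = 0.000334) and was called in all 20 alternatives. EIF2S1, the initiation factor subunit that stress kinases phosphorylate, rose by 3.70 (limma adjusted p = 0.00501). NFE2L2, the antioxidant response factor, rose by 3.44 (limma adjusted p = 0.0233), while its other probe set, Bt.25670.1.A1_at, gave -0.36 and did not pass.

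**Figure D5:**
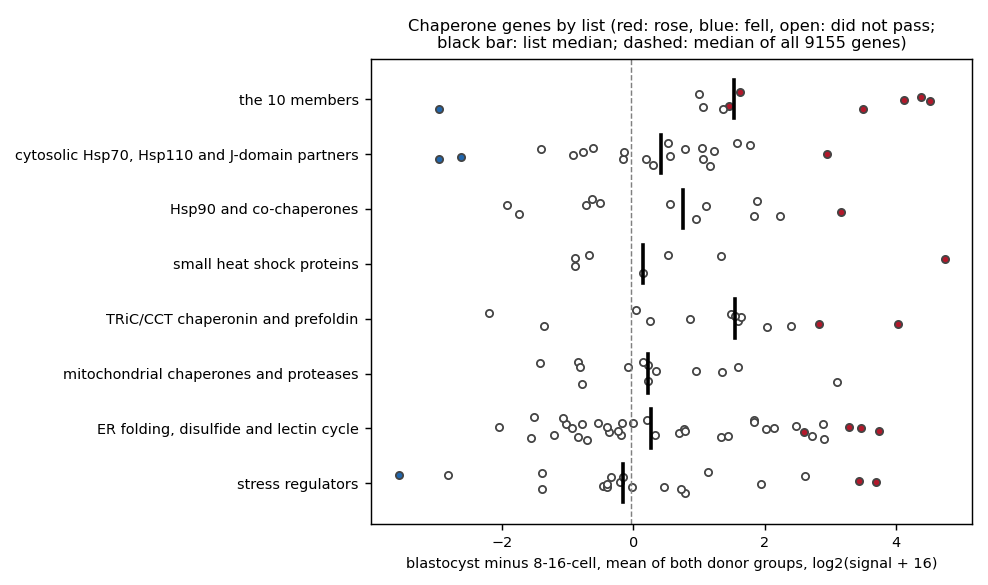
Blastocyst minus 8-16-cell difference over both donor groups, on the log2(signal + 16) scale, for the 10 members and for 7 lists of chaperone-system genes; each point is a gene, red rose, blue fell, open did not pass, and the bar is the list's median. The members' median is 1.54, that of TRiC and prefoldin 1.55, and those of the other lists lie between -0.15 and 0.76, with all 9155 genes at -0.04 (dashed).

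The donor comparisons asked whether the origin of the oocyte, prepubertal or adult, left a difference at either stage. At the 8-16-cell stage 0 of the 22 probe sets passed, where 0.0208% of all did, and 4 of 22 had an unadjusted p under 0.05 (9.02% of all). The prepubertal arrays lay above the adult ones without overlap for 2 of the 22 and below them for 1 (10.0% and 2.67% of all). The median over the 10 genes was -0.46, beside 0.46 over all genes. It was 0.31 beside 0.25 without prepubertal 8-16-cell replicate 3, and -0.65 beside -0.05 after quantile normalization. The arrays of these groups also differed in background without overlap, as given above, and the part of this was not tested.

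CANX had the smallest p among the members in this comparison. As given above, Bt.12868.1.S1_at read 526, 1137 and 77 in prepubertal and 3497, 5616 and 16508 in adult 8-16-cell embryos, with no overlap. The difference was -4.15 (SE 1.02, limma adjusted p = 0.134) and -3.12 without replicate 3 (adjusted p = 0.215). It passed in 1 of 21 alternatives, without prepubertal 8-16-cell replicate 2 (limma adjusted p = 0.0439). The other CANX probe sets gave -2.45 and -2.59, with overlap (limma adjusted p = 0.511 and 0.501), and -1.26 for each without replicate 3 (0.888 and 0.889). PDIA4 Bt.23128.1.S1_at was at least 13.7-fold higher in prepubertal 8-16-cell embryos without passing (limma adjusted p = 0.376), with 413, 2023 and 23502 against 76, 192 and 118 in adult embryos. The 23502 came from replicate 3, without which the bound was 4.65-fold (limma adjusted p = 0.815).

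In blastocysts 0 of the 22 probe sets passed, and 0% of all did. By unadjusted limma p under 0.05 the counts were 0 of 22 and 3.68% of all. None lay higher in prepubertal blastocysts without overlap (6.04% of all), and 3 lay lower without overlap (3.78% of all). These were HSPD1 (-0.95, SE 0.99), CANX Bt.12868.1.S1_at (-0.63, SE 1.02) and HSPA5 Bt.4273.1.S1_at (-0.83, SE 0.85), each with a limma adjusted p of 1. HSPD1 signals were 34762 to 43931 in prepubertal and 67954 to 74121 in adult blastocysts, with SDs of 0.21 and 0.07 on the log2 scale. The 95% interval of the difference, -2.89 to 0.99, spans 0. That interval rests mostly on the spread shared by all probe sets and not on these SDs. HSPA1A Bt.5154.1.S1_at was 2.33 higher in prepubertal blastocysts (interval -0.02 to 4.68), and 0.06 without adult blastocyst replicate 1.

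The difference of the donor effect between the stages passed for 0 of the 22 probe sets and for 0% of all, with 2 of 22 and 5.44% of all at unadjusted limma p under 0.05. The 2 were PDIA4 Bt.23128.1.S1_at (-5.15, SE 2.04) and CANX Bt.12868.1.S1_at (3.52, SE 1.45), each with a limma adjusted p of 0.873. Both shrank when prepubertal 8-16-cell replicate 3 was left out, to -3.59 (SE 2.05) for PDIA4 and 2.49 (SE 1.12) for CANX, each with a limma adjusted p of 0.958. No stage difference of a member was thus shown to differ between donor groups, including those that passed in 1 group and not in the other. None of the 120 list genes passed in a donor comparison or in this one by limma at adjusted p 0.05, where 8 at the 8-16-cell stage, 2 in blastocysts and 8 for the difference had an unadjusted p under 0.05.

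Ordered by mean log2 signal, 10 of the 22 probe sets, of HSP90AA1, HSPD1, HSPE1, CANX, CALR, HSPA5 and HSP90B1, ran from adult blastocysts through prepubertal blastocysts and adult 8-16-cell embryos to prepubertal 8-16-cell embryos. Another 4 probe sets, of HSPA8, HSP90AA1 and HSPA1A, exchanged the places of the 2 blastocyst groups. Within a stage, no donor difference of these probe sets passed after adjustment. The 95% intervals of the 3 CANX probe sets at the 8-16-cell stage lay below 0, and those of the other probe sets in this order spanned 0 at both stages. When prepubertal 8-16-cell replicate 3 was left out, both 8-16-cell groups changed places for HSPA8, HSPD1, HSPE1, CALR, HSP90B1, HSP90AA1 Bt.23179.1.S2_at and HSPA5 Bt.4273.1.S1_at. The signs of the stage difference were positive for 16 of 22 probe sets in prepubertal embryos and for 16 of 22 in adult embryos, and without prepubertal 8-16-cell replicate 3 for 15 of 22 in prepubertal embryos.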

How the data were processed

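The deposited values are signal intensities per probe set, made with MAS5 per the submitters' processing notes; the sources used here give no version or settings. Per the labels' protocols, RNA was amplified (WT-Ovation Pico), biotin-labelled and hybridized. On each of the 12 arrays the mean signal, trimmed by 2% at each end, was 500.19 to 500.31. Of 24128 probe sets, 112 controls were left out. Of the rest, 13292 named 1 gene, 86 several and 10638 none. Signals were taken as log2(signal + 16) from the deposited intensities, and limma 3.58.1 (R 4.3.3) fitted all 4 group means together over the 12 arrays (lmFit, then eBayes with trend; 8 residual and 195.66 prior degrees of freedom, so that a probe set's own spread counts for little). Tests are two-sided, with Benjamini-Hochberg adjustment across all 24016. The fit was tested on simulated data. A fold is a bound ("at least") where no array of the dimmer group exceeded its background. It bounds the fold between the measured means and holds no error of sampling. Sequences were not used here, so the planned motif search was not run.

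Members and lists were chosen with earlier results of these data known. Named genes are the 10 members and list genes called in a comparison, each by its probe set of highest mean level. Alternatives changed the pseudocount (1 or 64), normalization, filter, floor, replicate block, array weights, trend and arrays; list counts and medians without prepubertal 8-16-cell replicate 3 and after quantile normalization, and bounds, signs and shares without that array, were added after seeing the data.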

Additional observations from a re-analysis of the deposited data

How the results depend on the processing

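Counts of members are of 22 probe sets, given as higher then lower in blastocysts, and counts of all are of 24016. Where counts of all are given, they moved with the setting too. A members' count without one therefore does not show a change in the members. In adult embryos 512 of all were called and the members' counts were 1 and 1; the members were 2 and 0 with a pseudocount of 64 or with only probe sets above background on at least 3 arrays, 2 and 1 with quantile normalization, 3 and 1 with array weights (889 of all), 5 and 0 with signals floored at the highest background (241 of all), 0 and 0 without the trend of the eBayes step, and 5 and 1 in a fit of the adult arrays only. In prepubertal embryos 563 of all and 5 and 0 of the members were called; the higher count was 8 with quantile normalization, 3 with the floor (298 of all), 2 with array weights and 1 without the trend. Over both donor groups 1538 of all and 8 and 1 of the members were called; the lower count was 2 with the filter and with the floor (603 of all) and 0 without the trend. For prepubertal against adult 8-16-cell embryos, 5 of all were called, 3 with a pseudocount of 1 or 64 or array weights, 9 with quantile normalization, 1 with the floor, 0 with the filter or without the trend, and 2 in a fit of those arrays only. For blastocysts, a fit of the blastocyst arrays only called 2 where the fit of all arrays called 0. Leaving out each array in turn gave 253 to 794 of all and members of 1 to 5 higher and 0 to 1 lower in adult embryos, 272 to 611 and 1 to 6 higher in prepubertal embryos, and 0 to 1 lower over both donor groups. It gave 2 to 14 of all for the donor comparison at the 8-16-cell stage and 0 to 1 for the difference between stages. No called difference of a named gene changed sign, and of 3095 differences of single probe sets under the alternatives, 134 lost and 46 gained a call. The floor leaves 6396 varying probe sets, which changes how many are tested; otherwise the cause was not tested. With 3 arrays a group, their number limits the precision.

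Deviations of same-numbered arrays correlated at -0.02 to 0.04 in 18 pairs, and those of differently numbered arrays at -0.05 to 0.03 in 36. Pairing by replicate number was thus not seen. Whether same-numbered pools shared donors, a bull or a day of culture cannot be read from these values. With the replicate number as a block, 540, 608 and 1591 of all were called for the adult, prepubertal and combined stage differences, and the members' higher counts were 2, 6 and 9.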
